A study of Homo sapiens with 18 samples.

Results

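LNCaP-abl cells were compared with hormone-starved LNCaP cells in 6 arrays of a series of 18, taken as LNCaP-abl with control siRNA and vehicle (3 arrays) against LNCaP with control siRNA and vehicle (3 arrays). The arrays were chosen by their labels, and no measured value entered the choice. LNCaP is a human prostate cancer cell line that responds to androgen, and LNCaP-abl is a subline of it obtained by long culture without androgen. The cells of all 6 arrays carried a control siRNA, delivered by a 48 h transfection, and received ethanol, the vehicle of the hormone, for 24 h. The labels describe 48 h of starvation in medium with serum stripped by charcoal and dextran for these experiments, in a growth protocol that names LNCaP. They do not say whether LNCaP-abl cells were kept in another medium before that, so the line and its usual medium cannot be told apart. Further groups of 3 arrays each stand beside the comparison below: LNCaP-abl and LNCaP with TRIM24 siRNA and vehicle, and LNCaP with control siRNA and 10 nM dihydrotestosterone (DHT) for 24 h. TRIM24 is a chromatin reader and nuclear receptor cofactor, and DHT is the most active natural androgen. LNCaP-abl is 1 subline, so what is particular to that subline and what belongs to androgen-independent growth in general cannot be told apart.

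Normal luminal cells of the prostate and most cancers derived from them depend on androgen, which drives secretory genes such as KLK3 (prostate-specific antigen) and, in cancer cells, growth. When androgen is withdrawn, LNCaP cells slow their division and lose much of the expression of these genes. Sublines that grow again without hormone serve as laboratory models of castration-resistant prostate cancer.

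Each value below is a log2 expression value of 1 array, so a difference of 1 is a 2-fold difference. Differences are LNCaP-abl minus LNCaP, given with the standard error (SE) of a limma fit with 3 arrays in each group. A gene was called higher or lower at an adjusted p under 0.05 from limma, with Benjamini-Hochberg adjustment over the 13607 genes tested. Counts of a gene list in this comparison stand beside 29.1% higher and 34.6% lower among all genes tested. Signals under 5.88, the median of the whole table, were treated as dim, and differences that reach into that range are compressed. A gene is represented by its probe set with the highest mean. Apart from the genes noted below, another probe set gave a difference of the opposite sign for AKR1C1, AURKA, CCNE1, DLL1, DST, DTNA, EHF, FOXO1, LIFR, MAGEC2, NCAM2, PFKFB2, PFKP, SEMA6D and SLC7A2. It gave one of the same sign but smaller than 0.1 for CCNB2, CDK2, E2F5, EPHA3 and TRPM8. The medians of the 6 arrays lay between 5.87 and 5.90. Across probe sets, the arrays of this comparison correlated at 0.996 to 0.998 within a line and at 0.967 to 0.969 between the lines. The 3' over 5' log2 ratio of the GAPDH control probes, a sign of RNA integrity, was 0.56 ± 0.01 in LNCaP-abl and 0.52 ± 0.03 in LNCaP (SD, n = 3 each). For ACTB it was 1.87 ± 0.09 in LNCaP-abl and 1.87 ± 0.06 in LNCaP (SD, n = 3 each). The labels do not say that the 3 arrays of a group came from separate cultures, so the p-values cover the variation among these arrays and may reflect technical spread alone.

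Most luminal prostate markers were present in both lines. Of 16 measured luminal markers, 2 were dim in all arrays of LNCaP-abl and 2 in all arrays of LNCaP. The log2 of their summed signal was 15.95 to 15.96 in LNCaP-abl and 16.11 to 16.19 in LNCaP. Among the 15 luminal markers tested, 3 were higher and 7 lower in LNCaP-abl. The prostatic acid phosphatase gene ACP3 had 12.01, 11.93 and 11.90 in LNCaP-abl, against 13.28, 13.23 and 13.21 in LNCaP, a difference of -1.30 ± 0.03 (limma adjusted p = 1.08e-14). The luminal keratins KRT8 and KRT18 differed by -0.81 ± 0.04 and -0.59 ± 0.04. The epithelial transcription factor EHF was higher by 0.43 ± 0.03. HOXB13, a prostate homeobox factor, differed by -0.26 ± 0.04. Of 13 leukocyte and endothelial markers, 10 were dim in all arrays of each line, and the 3 that were tested were not called by limma, although 2 were called lower without LNCaP-abl array 1 and 1 higher without LNCaP-abl array 2.

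The lines differed at a large part of the measured genes. In LNCaP-abl, 3962 genes (29.1% of 13607) were higher and 4713 (34.6%) were lower than in LNCaP. Most of these differences were small: their median size was 0.39, and 668 genes (4.91%) were higher and 680 (5%) lower by 2-fold or more. For 66.6% of all tested genes the 3 arrays of one line did not overlap the 3 of the other.

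**Figure D1:**
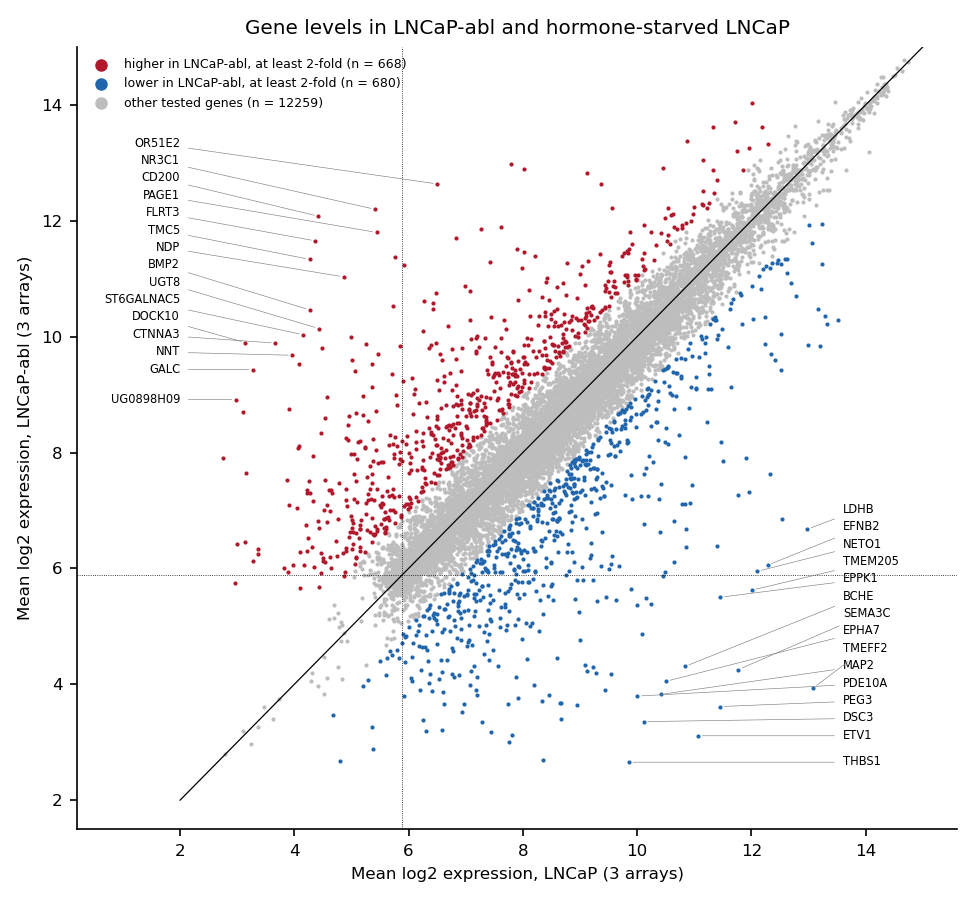
Mean log2 expression of 13607 genes in LNCaP (horizontal axis) and LNCaP-abl (vertical axis), each the mean of 3 arrays with control siRNA and vehicle; dotted lines mark 5.88, below which signals are dim, and the 15 largest rises and falls are named. The 668 genes in red and the 680 in blue differ by 2-fold or more, and genes at the far left and far bottom are dim in one line and abundant in the other.

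The largest gains in LNCaP-abl were mostly genes that were dim in LNCaP. CD200, a cell-surface glycoprotein that engages an inhibitory receptor on myeloid cells, had 12.16, 12.04 and 12.04 in LNCaP-abl, against 4.41, 4.44 and 4.41 in LNCaP. It was thus dim in every LNCaP array and abundant in every LNCaP-abl array, a difference of 7.66 ± 0.06 (limma adjusted p = 1.52e-20). NR3C1, the glucocorticoid receptor, a steroid receptor whose DNA recognition sequence is shared with that of androgen signalling, had 12.20, 12.21 and 12.19 in LNCaP-abl, against 5.41, 5.61 and 5.21 in LNCaP. That is a difference of 6.79 ± 0.09 (adjusted p = 3.57e-18), and its 5 probe sets gave differences from 3.15 to 7.32. FLRT3, a leucine-rich repeat adhesion protein, had 11.68, 11.63 and 11.65 in LNCaP-abl and 4.54, 4.21 and 4.35 in LNCaP (7.29 ± 0.10, adjusted p = 3.56e-18). OR51E2, an olfactory receptor known for its expression in prostate, had 12.60, 12.67 and 12.63 in LNCaP-abl, against 6.45, 6.47 and 6.59 in LNCaP (6.13 ± 0.09, adjusted p = 7.47e-18). BMP2, a secreted bone morphogenetic protein, had 10.43, 10.37 and 10.58 in LNCaP-abl and 4.24, 4.18 and 4.40 in LNCaP (6.19 ± 0.09, adjusted p = 6.95e-18). NDP encodes norrin, a secreted ligand of the receptor Frizzled-4, and differed by 6.17 ± 0.09. Arrays without overlap between the lines were a condition of the rule that chose these genes.

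Of the remaining large gains, PAGE1, a cancer-testis antigen, differed by 6.36 ± 0.11. DOCK10, a guanine nucleotide exchange factor, differed by 6.76 ± 0.07, with 1.17 at its other probe set. CTNNA3, the adhesion protein alpha-T-catenin, gave 6.22 ± 0.11, and TMC5, a transmembrane channel-like protein, 7.06 ± 0.13. Their lowest probe sets gave 0.46 for CTNNA3 and 0.32 for TMC5. UGT8, which makes galactosylceramide, and GALC, the lysosomal enzyme that breaks the same lipid down, were both among the 15 largest gains, at 5.71 ± 0.12 and 6.15 ± 0.10. GALC had 9.57, 9.36 and 9.37 in LNCaP-abl and 3.14, 3.30 and 3.40 in LNCaP at this probe set, and its other probe set gave 0.39. ST6GALNAC5, a sialyltransferase of gangliosides, gave 5.88 ± 0.12, with a lowest probe set of -0.24. The locus named UG0898H09 differed by 5.94 ± 0.08. NNT, the mitochondrial transhydrogenase that supplies NADPH, had 9.61, 9.66 and 9.76 in LNCaP-abl, against 3.73, 3.57 and 4.60 in LNCaP, a difference of 5.71 ± 0.21. Its 4 probe sets ranged from 0.83 to 5.71. The neighbouring antisense gene NNT-AS1, chosen after its values were seen, had 8.54, 8.72 and 8.83 in LNCaP-abl and 2.997, 3.09 and 3.21 in LNCaP (5.60 ± 0.10).

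The largest losses went further. TMEFF2, a transmembrane protein with follistatin-like domains known from prostate and brain, had 4.10, 3.92 and 3.79 in LNCaP-abl, against 13.11, 13.10 and 13.04 in LNCaP. It was dim in every LNCaP-abl array and abundant in every LNCaP array, a difference of -9.15 ± 0.06 (limma adjusted p = 7.24e-22), although another of its 3 probe sets gave 0.02. ETV1, the ETS transcription factor that LNCaP is known to overexpress through a chromosomal rearrangement, had 3.06, 2.97 and 3.30 in LNCaP-abl, against 11.12, 11.14 and 10.95 in LNCaP. The difference was -7.96 ± 0.11 (adjusted p = 3.47e-18), and all 5 probe sets were lower, from -7.96 to -0.71. PEG3, an imprinted zinc finger gene, had 3.61, 3.46 and 3.78 in LNCaP-abl and 11.44, 11.48 and 11.45 in LNCaP (-7.84 ± 0.12, adjusted p = 8.21e-18). SEMA3C, a secreted semaphorin, had 4.20, 4.41 and 4.15 in LNCaP-abl and 11.84, 11.76 and 11.71 in LNCaP (-7.52 ± 0.06, adjusted p = 7.11e-21). THBS1, the matrix protein thrombospondin-1, had 2.79, 2.36 and 2.81 in LNCaP-abl, against 9.96, 9.97 and 9.63 in LNCaP (-7.20 ± 0.16, adjusted p = 1.01e-15), with probe sets up to 0.10. The rule that chose these losses also required arrays without overlap between the lines, which 66.6% of all tested genes had.

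LDHB, the lactate dehydrogenase subunit that favours lactate use, had 6.82, 6.28 and 6.93 in LNCaP-abl, against 12.98, 12.95 and 13.01 in LNCaP (-6.30 ± 0.12), and its other probe set gave -8.16. LDHA, the subunit that favours lactate production, was chosen after its values were seen and differed by 0.01 ± 0.03 (adjusted p = 0.798). The neuronal microtubule protein MAP2 differed by -6.59 ± 0.08 and BCHE, butyrylcholinesterase, by -6.53 ± 0.07. PDE10A, which breaks down cyclic nucleotides, gave -6.21 ± 0.17. NETO1, an auxiliary subunit of glutamate receptors, gave -6.15 ± 0.10. TMEM205, a transmembrane protein, and EPPK1, the plakin epiplakin, differed by -6.38 ± 0.16 and -5.96 ± 0.09. The 5 probe sets of EPPK1 reached -0.04.

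Genes with an all-or-none pattern were counted as those dim in all 3 arrays of one line and at 7.88 or more, 4-fold above the dim limit, in all 3 of the other. By this rule 52 genes were on in LNCaP-abl and off in LNCaP, and 50 were off in LNCaP-abl and on in LNCaP. In the 6 arrays with TRIM24 siRNA, which the rule did not use, 41 of the 52 and 40 of the 50 met the same split. There, all 52 and all 50 were called in the same direction by limma. So were 640 of the 668 genes at least 2-fold higher and 678 of the 680 at least 2-fold lower. The rule chose genes by large differences, so these counts are a description. Treatment with DHT for 24 h left 47 of the 52 dim in all 3 LNCaP arrays, and 1, the neuronal catenin CTNNA2, was at 7.88 or more in all 3. CTNNA2 averaged 8.19 in LNCaP-abl, 8.16 in LNCaP with DHT and 5.16 in LNCaP with vehicle, and was chosen after its values were seen. Of the 50 genes off in LNCaP-abl, none was dim in all 3 DHT-treated LNCaP arrays and 37 were at 7.88 or more in all 3.

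Cell cycle genes were higher almost throughout. Entry into mitosis is driven by cyclin B with CDK1, by the Aurora and Polo kinases, and by the spindle and kinetochore proteins, whose genes are transcribed together late in the cycle. In bulk RNA, a different share of cells in a phase and a different amount of RNA per cell cannot be told apart. Of 40 G2/M and mitosis genes tested, 39 were higher in LNCaP-abl and 0 lower, against 29.1% higher and 34.6% lower among all genes, and 35 were at least 2-fold higher, against 4.91% of all genes. The median difference of the list was 1.79, against -0.02 over all tested genes. UBE2C, the ubiquitin-conjugating enzyme of the anaphase-promoting complex, had 9.35, 9.32 and 9.35 in LNCaP-abl, against 7.58, 7.61 and 7.58 in LNCaP. It was higher by 1.75 ± 0.04 (limma adjusted p = 6.6e-16), or 3.37-fold, with no overlap. NUSAP1, a spindle-associated protein, had 9.85, 9.79 and 9.82 in LNCaP-abl and 7.46, 7.55 and 7.55 in LNCaP (2.30 ± 0.05, adjusted p = 3.29e-16). PRC1, which bundles microtubules at the spindle midzone, had 9.59, 9.72 and 9.65 in LNCaP-abl and 7.50, 7.38 and 7.39 in LNCaP (2.23 ± 0.05, adjusted p = 2.66e-15). The mitotic kinesin KIF20A differed by 1.96 ± 0.04, the separase inhibitor PTTG1 by 1.65 ± 0.04 and cyclin B2, CCNB2, by 1.51 ± 0.04. The kinases AURKA and AURKB and the checkpoint gene BUB1B differed by 1.56 ± 0.05, 1.39 ± 0.04 and 2.05 ± 0.07. The kinetochore gene SPC25 gave the largest of the 39 differences and PLK1 the smallest, from 0.21 to 2.98, and SPC25 had 7.45, 7.65 and 7.48 in LNCaP-abl and 4.57, 4.73 and 4.32 in LNCaP.

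Some familiar proliferation markers, chosen after their values were seen, moved less. MKI67, which encodes the antigen Ki-67, had 6.92, 6.94 and 6.99 in LNCaP-abl, against 6.40, 6.51 and 6.75 in LNCaP (0.39 ± 0.08, adjusted p = 0.000564), while its 4 probe sets gave differences from 0.39 to 1.18. FOXM1, the transcription factor of the late cycle, differed by 0.53 ± 0.09 (adjusted p = 5.66e-05). The Polo kinase PLK1 had 5.98, 5.86 and 6.01 in LNCaP-abl and 5.63, 5.88 and 5.72 in LNCaP (0.21 ± 0.08, adjusted p = 0.0338), a call that was lost without LNCaP array 1 or 3, without LNCaP-abl array 1 or 3, and with an intensity trend in the variance. CKAP2, a spindle protein, was the list member that was not called (0.03 ± 0.07, adjusted p = 0.76). For most of these genes, LNCaP cells treated with DHT lay between LNCaP-abl and starved LNCaP. Relative to vehicle, DHT raised 30 of the 40 genes and lowered 0, against 19.4% raised and 26.4% lowered among all genes, with a median of 0.33. Relative to DHT-treated LNCaP, 39 of the 40 were still higher in LNCaP-abl and 1 lower, against 33.2% and 34.4% of all genes. UBE2C averaged 9.34 in LNCaP-abl, 8.05 in LNCaP with DHT and 7.59 in LNCaP with vehicle. These comparisons share arrays and are given side by side.

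Short sequence elements in the promoters of the mitosis genes are shown because these genes moved together. The cell cycle homology region (TTTGAA) and the CCAAT box (CCAAT) are known elements of promoters active late in the cycle. Both were searched on either strand, with overlapping matches counted, in the 250 bases before the start of each gene in the RefSeq promoter table (GRCh38.p14). Of 40 list members, 33 had a promoter in the table. TTTGAA was found in 19 of them (57.6%), against 12% of 10959 tested genes with a promoter, and CCAAT in 26 (78.8%), against 41% of those genes. In the G1/S and DNA replication list, 1 of 35 promoters (2.86%) held TTTGAA and 20 (57.1%) held CCAAT. The lines that follow give the 200 bases before the start of the 3 genes with the largest difference among list members whose window holds both elements, chosen after their values were seen, with both in capitals and on the strand of the gene. A match on the opposite strand appears as ATTGG or TTCAAA. HMMR, a hyaluronan and microtubule binding protein, lies on the plus strand at chr5:163460432-163460631, PRC1 on the minus strand at chr15:90994536-90994735, and ASPM, a spindle pole protein, on the minus strand at chr1:197146670-197146869.
HMMR: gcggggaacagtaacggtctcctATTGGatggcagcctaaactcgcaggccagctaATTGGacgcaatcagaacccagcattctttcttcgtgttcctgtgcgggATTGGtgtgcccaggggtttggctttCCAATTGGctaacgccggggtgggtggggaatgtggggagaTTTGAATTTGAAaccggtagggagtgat
PRC1: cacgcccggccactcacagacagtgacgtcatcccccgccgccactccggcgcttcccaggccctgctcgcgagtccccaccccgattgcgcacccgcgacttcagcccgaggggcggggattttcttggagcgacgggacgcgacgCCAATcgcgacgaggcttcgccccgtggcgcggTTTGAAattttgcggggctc
ASPM: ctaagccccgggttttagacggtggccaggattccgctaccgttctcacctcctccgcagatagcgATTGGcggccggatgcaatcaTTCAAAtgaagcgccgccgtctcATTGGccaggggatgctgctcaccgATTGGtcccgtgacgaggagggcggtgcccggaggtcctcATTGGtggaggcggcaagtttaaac
The HMMR window held 5 matches to CCAAT and 2 to TTTGAA, the PRC1 window 1 and 1, and the ASPM window 4 and 1. HMMR differed by 2.65 ± 0.07 between LNCaP-abl and LNCaP and ASPM by 2.16 ± 0.10. A match describes the letters only.

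DNA replication genes rose as well, by less. Of 39 G1/S and DNA replication genes tested, 34 were higher and 2 lower in LNCaP-abl, against 29.1% and 34.6% of all genes, with a median difference of 0.84. At least 2-fold higher were 16, against 4.91% of all genes. RRM2, the regulated subunit of ribonucleotide reductase, had 10.01, 10.05 and 9.98 in LNCaP-abl, against 7.25, 7.20 and 7.12 in LNCaP, with no overlap (2.83 ± 0.06, limma adjusted p = 8.87e-16). DTL, a substrate receptor of the replication ubiquitin ligase, had 7.76, 8.01 and 7.90 in LNCaP-abl, against 4.99, 5.30 and 5.03 in LNCaP (2.79 ± 0.11, adjusted p = 2.23e-12). Thymidine kinase TK1 differed by 1.79 ± 0.06, the flap endonuclease FEN1 by 1.21 ± 0.05 and MCM3, a subunit of the replicative helicase, by 1.07 ± 0.05. The list members that were lower, chosen after their values were seen, were cyclin E1, CCNE1 (-0.48 ± 0.05), and the polymerase subunit POLD1 (-0.22 ± 0.08, adjusted p = 0.0164). The POLD1 call was lost without LNCaP array 3 or LNCaP-abl array 1. CCNE2, the paralog of CCNE1, was higher, with 10.36, 10.19 and 10.39 in LNCaP-abl and 8.56, 8.51 and 8.39 in LNCaP (1.82 ± 0.09).

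Among CDK inhibitors, RB family members and G1 kinases, 5 of 18 tested genes were higher and 7 lower, close to the shares over all genes. CDKN1B, which encodes p27, had 10.90, 10.90 and 10.95 in LNCaP-abl and 11.53, 11.52 and 11.39 in LNCaP (-0.56 ± 0.04, limma adjusted p = 8.14e-09). CDKN2B and CDKN2A, the neighbouring inhibitors of CDK4 and CDK6, differed by -1.33 ± 0.11 and -1.29 ± 0.15, but their probe sets disagreed, reaching 0.09 for CDKN2B and 0.30 for CDKN2A. CDKN1A, which encodes p21 and was chosen after its values were seen, differed by -0.05 ± 0.04 (adjusted p = 0.23). The kinase CDK2 and the transcription factor E2F5 were higher by 0.64 ± 0.06 and 0.43 ± 0.04. RB1, the retinoblastoma gene, was lower, at -0.66 ± 0.09, and was chosen after its values were seen.

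**Figure D2:**
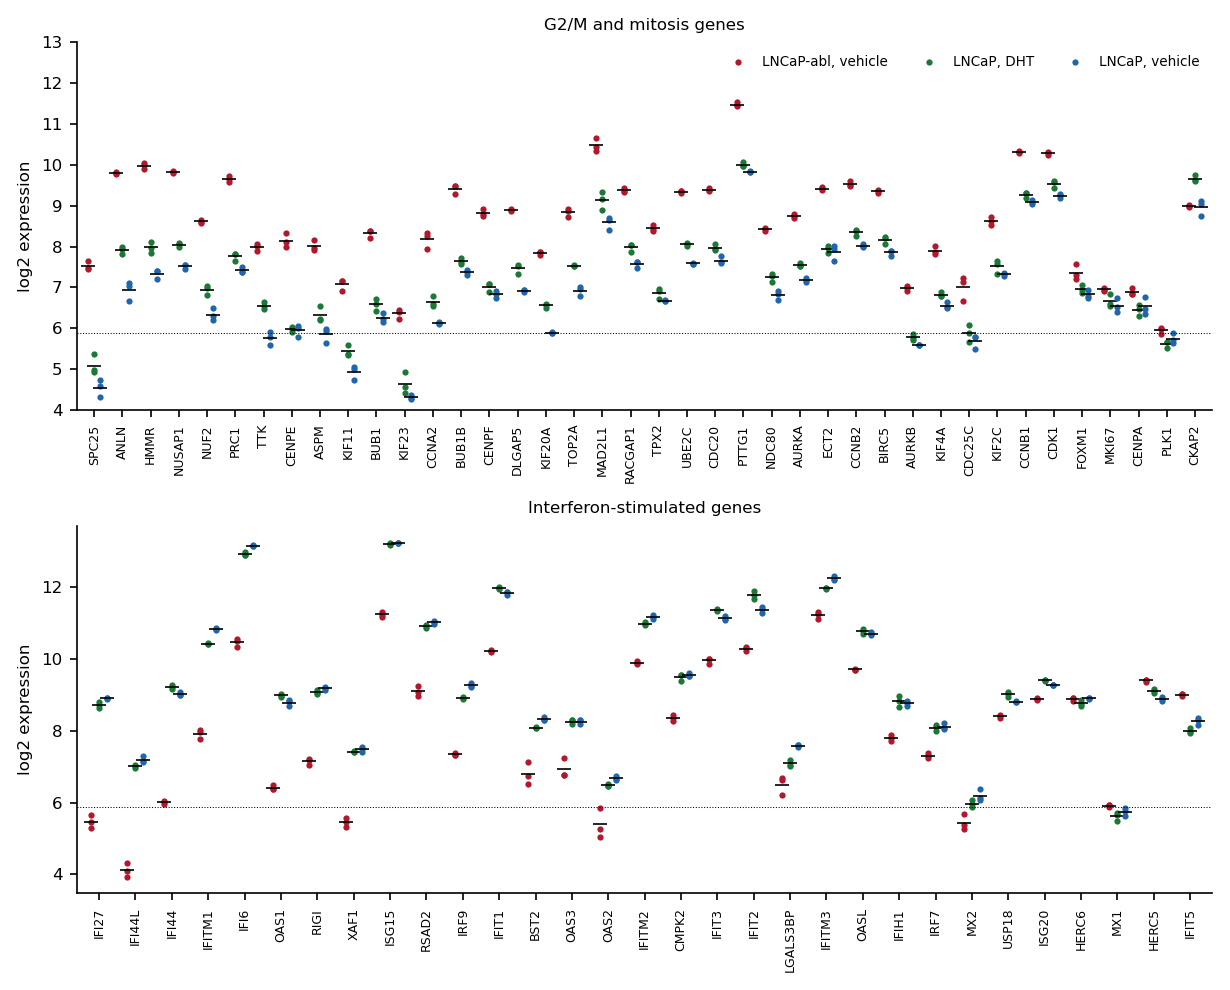
Log2 expression of the 40 G2/M and mitosis genes (top) and the 31 interferon-stimulated genes (bottom) in LNCaP-abl with vehicle (red), LNCaP with 10 nM DHT (green) and LNCaP with vehicle (blue), 3 arrays each with the mean as a black bar; the dotted line is 5.88. Red points lie above blue ones for nearly every mitosis gene and below them for nearly every interferon gene, while green points lie between them or near the blue ones for most genes.

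Interferon-stimulated genes were lower almost throughout. These genes encode sensors and effectors of the antiviral response and are switched on through interferon receptors and the factor IRF9. Of 31 tested, 27 were lower in LNCaP-abl and 2 higher, against 34.6% and 29.1% of all genes, and 21 were at least 2-fold lower, against 5% of all genes. The median difference was -1.29. ISG15, a ubiquitin-like modifier, had 11.32, 11.18 and 11.24 in LNCaP-abl, against 13.24, 13.23 and 13.25 in LNCaP, with no overlap (-1.99 ± 0.04, limma adjusted p = 3.28e-16). IFITM1, a membrane protein that blocks viral entry, had 7.79, 8.02 and 7.96 in LNCaP-abl and 10.83, 10.81 and 10.88 in LNCaP (-2.92 ± 0.05, adjusted p = 4.79e-17). IFI6, a mitochondrial protein, had 10.57, 10.33 and 10.51 in LNCaP-abl and 13.16, 13.14 and 13.18 in LNCaP (-2.69 ± 0.05, adjusted p = 3.37e-16). OAS1, which makes the 2'-5' oligoadenylate alarm signal, differed by -2.37 ± 0.05. IRF9, the DNA-binding part of the interferon-activated complex, was chosen after its values were seen and had 7.31, 7.39 and 7.33 in LNCaP-abl, against 9.23, 9.26 and 9.32 in LNCaP (-1.93 ± 0.04). IFIT1, which binds foreign RNA, and RSAD2, the antiviral enzyme viperin, were chosen in the same way and differed by -1.62 ± 0.05 and -1.93 ± 0.06.

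The exceptions were chosen after their values were seen. IFIT5, a relative of IFIT1, had 9.02, 9.02 and 8.97 in LNCaP-abl and 8.37, 8.31 and 8.17 in LNCaP (0.72 ± 0.07), and HERC5, the ligase that attaches ISG15, differed by 0.52 ± 0.04. Its neighbour HERC6 (-0.02 ± 0.04, adjusted p = 0.627) and the antiviral GTPase MX1 (0.16 ± 0.09, adjusted p = 0.129) were not called, and MX1 lay near the dim limit in both lines. DHT did not set these genes in one direction in LNCaP: 8 of 31 were raised and 9 lowered, against 19.4% and 26.4% of all genes, with a median of -0.11. Relative to LNCaP with DHT, 27 of 31 were lower in LNCaP-abl and 4 higher, against 34.4% and 33.2% of all genes. ISG15 averaged 11.25 in LNCaP-abl, 13.21 in LNCaP with DHT and 13.24 in LNCaP with vehicle.

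The known promoter element of these genes is the interferon-stimulated response element, searched here by its core, GAAA followed after any 2 bases by GAAA, on either strand in the 250 bases before the start. Of all 10959 tested genes with a promoter in the RefSeq table, 3.12% held it. Promoters were listed for 24 of the 31 list members, fewer than 80%, so no share over the list is given. Shown are the 200 bases before the start (GRCh38.p14, strand of the gene, core in capitals) of the 3 list members with the largest loss and a match in the window, chosen after their values were seen. IFI27 lies at chr14:94110536-94110735, IFI44L at chr1:78620248-78620447 and IFI44 at chr1:78649589-78649788, all on the plus strand. A match on the opposite strand appears as TTTC, any 2 bases and TTTC.
IFI27: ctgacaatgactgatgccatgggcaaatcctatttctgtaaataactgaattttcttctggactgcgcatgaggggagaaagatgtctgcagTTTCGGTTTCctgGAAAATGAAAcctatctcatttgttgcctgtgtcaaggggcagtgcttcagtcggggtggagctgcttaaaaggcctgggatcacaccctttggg
IFI44L: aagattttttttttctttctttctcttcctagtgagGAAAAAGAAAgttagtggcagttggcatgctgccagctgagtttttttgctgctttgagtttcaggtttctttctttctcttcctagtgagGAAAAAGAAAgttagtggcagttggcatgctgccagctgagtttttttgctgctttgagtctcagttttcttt
IFI44: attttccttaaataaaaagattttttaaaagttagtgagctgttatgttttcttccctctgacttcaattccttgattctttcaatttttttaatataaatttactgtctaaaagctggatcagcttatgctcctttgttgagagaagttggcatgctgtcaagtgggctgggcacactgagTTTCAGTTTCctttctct
The IFI27 window held 2 matches, the IFI44L window 2 and the IFI44 window 1. IFI44, which is induced by interferon, had 6.02, 6.06 and 5.97 in LNCaP-abl and 9.07, 9.01 and 9.003 in LNCaP (-3.01 ± 0.06). The neighbouring paralog IFI44L had 3.94, 4.33 and 4.11 in LNCaP-abl, where it was dim, and 7.14, 7.30 and 7.15 in LNCaP (-3.07 ± 0.15). IFI27, a mitochondrial interferon-induced protein, had 5.67, 5.45 and 5.28 in LNCaP-abl, also dim, and 8.89, 8.90 and 8.92 in LNCaP (-3.44 ± 0.10).

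Antigen presentation genes, many of which respond to interferon, were lower in part. Of 17 tested, 10 were lower and 2 higher in LNCaP-abl, against 34.6% and 29.1% of all genes, with a median of -0.26. The immunoproteasome subunit PSMB9 had 5.70, 5.52 and 5.49 in LNCaP-abl and 6.90, 6.82 and 6.99 in LNCaP (-1.33 ± 0.08, limma adjusted p = 2.34e-10). The peptide transporter TAP1 differed by -0.80 ± 0.04, and the class II editors HLA-DMA and HLA-DMB by -1.33 ± 0.07 and -0.77 ± 0.07. The class I gene HLA-F differed by -0.40 ± 0.04. Probe sets of HLA genes can bind transcripts of several of them. Of 16 chemokines and NF-kB targets, 4 were higher and 7 lower. CXCL10, a chemokine induced by interferon, differed by -1.50 ± 0.07, while CCL20 and IL1B were higher by 1.09 ± 0.10 and 0.73 ± 0.07 at low signals.

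Androgen-induced genes show how far LNCaP-abl cells express the hormone program without hormone. Of 34 tested, 12 were higher and 16 lower in LNCaP-abl than in starved LNCaP, with a median of -0.12. DHT raised 33 of the same 34 genes in LNCaP by a median of 2.39, against 19.4% of all genes raised. Relative to DHT-treated LNCaP, 33 were lower in LNCaP-abl and 1, the water channel AQP3, was higher, against 34.4% and 33.2% of all genes. This list and the androgen-repressed list below were chosen with earlier results of these data known. Their DHT counts are therefore a description and no independent test. KLK3 had 5.99, 5.35 and 5.78 in LNCaP-abl, 14.07, 14.16 and 14.12 in LNCaP with DHT and 8.55, 8.38 and 8.57 in LNCaP with vehicle. It was chosen after its values were seen, and was lower in LNCaP-abl than in starved LNCaP (-2.80 ± 0.13, limma adjusted p = 1.6e-11), with probe sets from -4.11 to -0.30. FKBP5, a steroid receptor chaperone chosen in the same way, had 9.65, 9.73 and 9.71 in LNCaP-abl, 13.20, 13.19 and 13.17 in LNCaP with DHT and 9.71, 9.72 and 9.74 in LNCaP with vehicle, so the starved lines overlapped (-0.03 ± 0.04, adjusted p = 0.606). TMPRSS2, a surface protease also chosen after its values were seen, averaged 9.97 in LNCaP-abl, 12.25 in LNCaP with DHT and 9.70 in LNCaP with vehicle.

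Some androgen-induced genes were far below starved LNCaP. The transcription factor MAF had 3.41, 3.23 and 3.54 in LNCaP-abl, 11.34, 11.26 and 11.34 in LNCaP with DHT and 8.71, 8.75 and 8.52 in LNCaP with vehicle (-5.27 ± 0.10 against vehicle, limma adjusted p = 2.51e-16), while probe sets of MAF reached 0.03. PMEPA1, a membrane adaptor that dampens TGF-beta signalling, had 6.35, 5.56 and 5.92 in LNCaP-abl, 12.78, 12.84 and 12.81 in LNCaP with DHT and 10.52, 10.40 and 10.55 in LNCaP with vehicle (-4.55 ± 0.15). BMPR1B, a BMP receptor, differed from vehicle-treated LNCaP by -4.16 ± 0.06 and ABCC4, an exporter of cyclic nucleotides and drugs, by -2.48 ± 0.05. The prostate transporter SLC45A3 was lower, at -0.65 ± 0.06. Others were above starved LNCaP. AQP3 had 11.25, 11.25 and 11.34 in LNCaP-abl, 8.11, 7.93 and 8.01 in LNCaP with DHT and 7.47, 7.46 and 7.35 in LNCaP with vehicle, so LNCaP-abl was highest (3.85 ± 0.08 against vehicle). CENPN, a centromere protein, averaged 10.33 in LNCaP-abl, 12.02 in LNCaP with DHT and 8.92 in LNCaP with vehicle. Chosen after their values were seen, TPD52, LIFR and C1orf116 were higher by 0.91 ± 0.03, 0.90 ± 0.05 and 0.89 ± 0.05, and the LIFR call was lost with its most variable probe set.

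**Figure D3:**
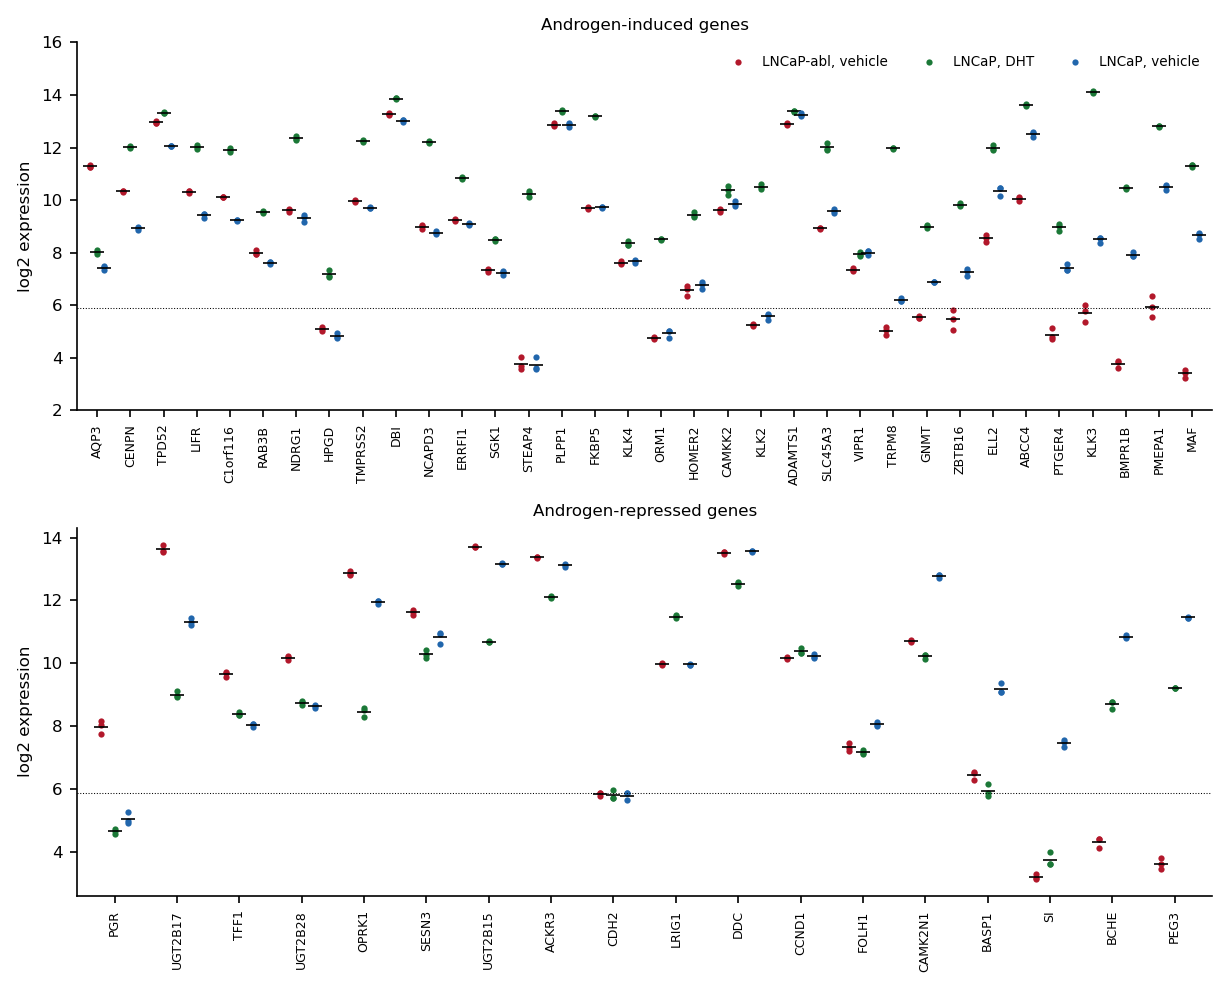
Log2 expression of 34 androgen-induced genes (top) and 18 androgen-repressed genes (bottom), each sorted by the difference between LNCaP-abl and vehicle-treated LNCaP, in LNCaP-abl with vehicle (red), LNCaP with 10 nM DHT (green) and LNCaP with vehicle (blue), 3 arrays each with the mean as a black bar; the dotted line is 5.88. Green points are highest for nearly every induced gene, and red points are highest for the repressed genes at the left, such as UGT2B17 and PGR.

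Androgen-repressed genes split in LNCaP-abl. Of 18 tested, 8 were higher and 6 lower, and DHT lowered 13 and raised 3 in LNCaP, against 26.4% and 19.4% of all genes. All 8 that were higher than in starved LNCaP were also higher than in DHT-treated LNCaP. UGT2B17, which inactivates androgens by glucuronidation, had 13.57, 13.54 and 13.78 in LNCaP-abl, 8.96, 8.93 and 9.11 in LNCaP with DHT and 11.45, 11.30 and 11.23 in LNCaP with vehicle (2.30 ± 0.07 against vehicle, limma adjusted p = 7.56e-14). The related UGT2B15 and UGT2B28, chosen after their values were seen, differed by 0.55 ± 0.04 and 1.56 ± 0.05, and probe sets of these similar genes may share transcripts. Also chosen after their values were seen, the opioid receptor OPRK1 averaged 12.87 in LNCaP-abl, 8.46 in LNCaP with DHT and 11.95 in LNCaP with vehicle, and PGR, the progesterone receptor, 7.98 in LNCaP-abl, 4.64 in LNCaP with DHT and 5.05 in LNCaP with vehicle. PGR was thus dim in LNCaP and present in LNCaP-abl (2.94 ± 0.10). In the other direction, SI, sucrase-isomaltase, had 3.28, 3.14 and 3.13 in LNCaP-abl, 3.98, 3.61 and 3.59 in LNCaP with DHT and 7.48, 7.54 and 7.32 in LNCaP with vehicle. CAMK2N1, an inhibitor of CaM kinase II, had 10.71, 10.68 and 10.73 in LNCaP-abl, 10.26, 10.15 and 10.28 in LNCaP with DHT and 12.73, 12.80 and 12.81 in LNCaP with vehicle.

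Enzymes that make and remove steroids were also split, with 7 of 16 tested higher and 7 lower. The aldo-keto reductase AKR1C1, which reduces steroid ketones, had 7.48, 7.55 and 7.15 in LNCaP-abl, against 9.40, 9.39 and 9.42 in LNCaP (-2.01 ± 0.08), and its paralog AKR1C2 had 6.54, 6.83 and 6.51 in LNCaP-abl, against 8.62, 8.58 and 8.73 in LNCaP (-2.02 ± 0.08). AKR1C3, the paralog that makes testosterone, was chosen after its values were seen and differed by -1.68 ± 0.13. The coding sequences of these paralogs are so similar that their probe sets may not separate them. SRD5A1, which turns testosterone into DHT, was lower, at -1.23 ± 0.05 and STS, which frees steroids from sulfate, at -1.29 ± 0.04, and all probe sets of both were lower. CYP17A1, the entry enzyme of androgen synthesis, lay near the dim limit at 5.75, 5.54 and 5.56 in LNCaP-abl and 5.68, 5.63 and 6.20 in LNCaP and was not called (adjusted p = 0.234). It was chosen after its values were seen, as was HSD17B6, an enzyme of the back-door route to DHT, at 1.12 ± 0.11. Among nuclear receptor cofactors and pioneer factors, 5 of 19 tested were higher and 9 lower, or 5 lower without LNCaP-abl array 1. RXRA, the shared partner of many nuclear receptors, differed by -0.77 ± 0.04 and the coactivator NCOA2 by 0.70 ± 0.04. The histone demethylase KDM1A was lower, at -0.57 ± 0.05. TRIM24 itself had 9.44, 9.60 and 9.55 in LNCaP-abl and 9.69, 9.71 and 9.71 in LNCaP (-0.17 ± 0.05, adjusted p = 0.012), with probe sets from -0.20 to 0.15. That call was lost with the mean of its probe sets and without LNCaP-abl array 1.

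Adhesion genes were among both the largest losses, as DSC3, and the largest gains, as FLRT3 and CTNNA3. Of 20 cell adhesion molecules tested, 9 were lower and 6 higher in LNCaP-abl, against 34.6% and 29.1% of all genes. The median difference of this list was -0.05. At 2-fold or more, 5 were lower and 3 higher, against 5% and 4.91% of all genes. Desmosomes join epithelial cells through the cadherins of the desmocollin (DSC) and desmoglein (DSG) families. All 4 desmosomal cadherins tested were lower in LNCaP-abl, 3 of them at least 2-fold, with a median of -4.02. Among all genes, 34.6% were lower and 5% at least 2-fold lower. DSC2 had 6.85, 6.79 and 6.92 in LNCaP-abl, against 12.56, 12.59 and 12.46 in LNCaP (-5.68 ± 0.04, limma adjusted p = 7.11e-21), DSC3 had 3.66, 3.27 and 3.13 in LNCaP-abl and 10.15, 10.12 and 10.07 in LNCaP, and DSG2 had 9.88, 9.87 and 9.89 in LNCaP-abl and 12.27, 12.27 and 12.18 in LNCaP. No array of one line overlapped the other for these genes, as for 66.6% of all tested genes. The fourth gene, DSC1, was dim in both lines. All 11 beta protocadherins tested, members of a clustered gene family that gives neurons their surface identity, were lower as well, 10 of them at least 2-fold, with a median of -1.41. PCDHB5 had 6.12, 6.04 and 6.19 in LNCaP-abl, against 10.68, 10.65 and 10.60 in LNCaP (-4.53 ± 0.08), and PCDHB2 differed by -4.18 ± 0.08. The genes of each of these families lie side by side and are similar in sequence, and the families were described after their values were seen. NCAM2, a neural adhesion molecule, was lower, at -3.83 ± 0.09. The neuroligin NLGN4X, chosen after its values were seen, was higher, with 11.44, 11.48 and 11.41 in LNCaP-abl and 9.88, 9.92 and 9.74 in LNCaP. E-cadherin, CDH1, chosen in the same way, differed by -0.02 ± 0.05 (adjusted p = 0.76), and was called lower with the mean of its probe sets and with its most variable one.

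Of 30 guidance genes, first known from growing axons, 16 were lower and 5 higher in LNCaP-abl, or 3 higher without LNCaP array 1, LNCaP array 2 or LNCaP-abl array 2. Ephrins and Eph receptors are paired surface ligands and receptor kinases that steer cells at contact. The ligand EFNB2 had 6.10, 5.96 and 6.11 in LNCaP-abl, against 12.32, 12.30 and 12.23 in LNCaP (-6.23 ± 0.07, limma adjusted p = 3.86e-19). The receptor EPHA7 had 3.99, 4.33 and 3.84 in LNCaP-abl, all dim, against 10.68, 10.52 and 10.33 in LNCaP (-6.46 ± 0.09). EPHA3, a related receptor, had 2.49, 2.75 and 2.84 in LNCaP-abl, also dim, against 8.41, 8.35 and 8.28 in LNCaP (-5.65 ± 0.10). Of 11 Eph receptors 7 were lower and 2 higher, and of 8 ephrins 5 were lower and 1 higher, against 34.6% lower and 29.1% higher among all genes. Among 14 semaphorins 9 were lower and 2 higher. The median differences were -0.52 for Eph receptors, -0.21 for ephrins and -0.21 for semaphorins. The families were described after their values were seen. SEMA6D, a transmembrane semaphorin, had 4.02, 4.45 and 4.53 in LNCaP-abl and 9.05, 9.13 and 9.06 in LNCaP (-4.75 ± 0.10). ROBO1, the receptor of Slit ligands, and PLXNA1, a semaphorin receptor, were chosen after their values were seen and differed by -4.25 ± 0.12 and -1.59 ± 0.06.

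Genes of the epithelial-mesenchymal switch and those of laminins and integrins were lower more often than higher. Of 15 genes of the epithelial-mesenchymal switch, 9 were lower and 3 higher in LNCaP-abl, against 34.6% and 29.1% of all genes. The list mixes epithelial and mesenchymal genes, so these counts give no direction of the switch. Vimentin, VIM, the intermediate filament of mesenchymal cells, had 6.04, 6.53 and 6.55 in LNCaP-abl, against 10.80, 10.84 and 10.92 in LNCaP (-4.48 ± 0.10, limma adjusted p = 1.45e-15), although its other probe set gave -0.26. TWIST1, a mesenchymal transcription factor, had 3.90, 3.96 and 3.27 in LNCaP-abl, all dim, and 8.29, 8.35 and 8.36 in LNCaP (-4.62 ± 0.15). Fibronectin, FN1, had 9.48, 9.43 and 9.35 in LNCaP-abl and 12.49, 12.49 and 12.58 in LNCaP (-3.10 ± 0.05). N-cadherin, CDH2, chosen after its values were seen, differed by 0.05 and was not called. The epithelial factors OVOL1 and OVOL2 differed by 0.80 ± 0.05 and -1.09 ± 0.05, with 0.04 and 0.08 at their other probe sets. Of 15 laminins and integrins, 11 were lower and 1 higher, against 34.6% and 29.1% of all genes. The laminin chain LAMB2 had 5.19, 5.18 and 5.95 in LNCaP-abl and 9.26, 9.29 and 9.36 in LNCaP (-3.86 ± 0.15), and the collagen receptor ITGA2 differed by -2.46 ± 0.11. ITGA6, a laminin receptor subunit, was the member that was higher, at 0.95 ± 0.09. Tenascin C, TNC, a matrix glycoprotein chosen after its values were seen, ran against this direction with 9.48, 9.62 and 9.50 in LNCaP-abl and 3.86, 4.09 and 4.29 in LNCaP (5.46 ± 0.13).

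Among keratins and luminal progenitor genes, 7 of 15 tested were lower and 2 higher. The tetraspanin TSPAN8 was higher and had 11.48, 11.43 and 11.49 in LNCaP-abl, against 8.02, 8.06 and 7.97 in LNCaP (3.45 ± 0.05, limma adjusted p = 1.3e-17). CD24, a surface mucin-like protein, had 9.14, 9.21 and 9.06 in LNCaP-abl and 11.63, 11.56 and 11.72 in LNCaP (-2.50 ± 0.05). The tight junction gene CLDN3 was lower, at -1.83 ± 0.07. Basal epithelial markers summed to a log2 signal of 11.51 to 11.61 in LNCaP-abl and 11.11 to 11.21 in LNCaP, and 8 and 6 of the 14 measured were dim in all arrays of LNCaP-abl and of LNCaP. Of the 7 tested, 2 were higher, among them dystonin, DST (1.28 ± 0.04), and 4 lower. Neuroendocrine markers, which mark another way that prostate cancers escape hormone dependence, were 3 higher and 3 lower of 10 tested. Their summed log2 signal was 13.62 to 13.70 in LNCaP-abl and 13.68 to 13.71 in LNCaP. At 2-fold or more, 0 were higher and 0 lower. Synaptophysin, SYP, chosen after its values were seen, was not called, with 6.53, 6.05 and 6.40 in LNCaP-abl and 6.20, 6.23 and 6.56 in LNCaP (adjusted p = 0.985). The enolase gene ENO2 and NCAM1, a relative of NCAM2, also chosen after their values were seen, were higher by 0.63 and 0.40. Under another processing choice NCAM1 reached 3.30. Fibroblast and mesenchymal markers summed to 11.12 to 11.18 in LNCaP-abl and 10.40 to 10.42 in LNCaP, with 6 of 15 dim in all arrays of each line. Of the 10 tested, 4 were higher and 3 lower. Among collagen genes, COL5A2 was higher, with 10.13, 10.11 and 10.18 in LNCaP-abl and 7.72, 7.70 and 7.69 in LNCaP, and COL5A1 was lower, with 5.58, 5.45 and 5.62 in LNCaP-abl and 6.46, 6.68 and 6.55 in LNCaP. The part of other cell types in these results was not tested.

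**Figure D4:**
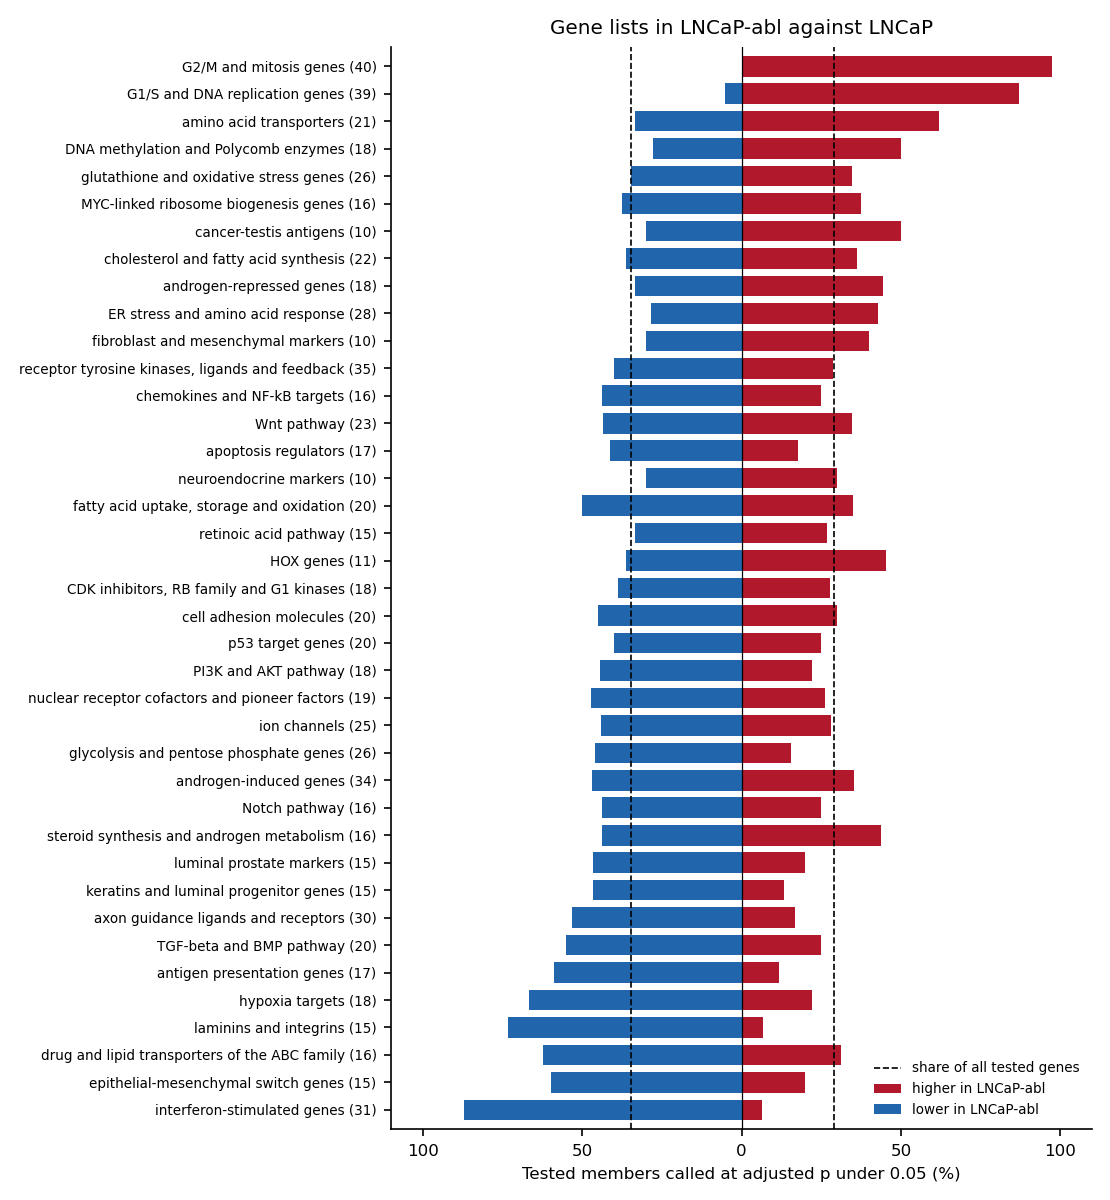
Share of the tested members of 39 gene lists, named with their number of tested members, that were called lower (left, blue) or higher (right, red) in LNCaP-abl than in LNCaP at a limma adjusted p under 0.05, sorted by the list's median difference. Dashed lines mark the shares of all tested genes, 34.6% lower and 29.1% higher; the mitosis and replication lists lie far to the right of them and the interferon list far to the left.

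Signalling lists held large single differences, with counts that stand beside 29.1% higher and 34.6% lower among all genes. Of 35 receptor tyrosine kinases, ligands and feedback genes, 10 were higher and 14 lower. EGF, a growth factor, had 9.78, 9.76 and 9.85 in LNCaP-abl, against 6.48, 6.38 and 6.22 in LNCaP (3.44 ± 0.09, limma adjusted p = 1.46e-14). Its receptor EGFR ran the other way, with 6.06, 5.97 and 6.26 in LNCaP-abl and 8.50, 8.53 and 8.46 in LNCaP (-2.40 ± 0.08, adjusted p = 9.94e-14), and its 9 probe sets reached 0.12. The receptors FGFR2 and FGFR3 also went opposite ways, at 2.86 ± 0.08 and -1.58 ± 0.06, and the 11 FGFR2 probe sets reached down to -0.22. In the PI3K and AKT pathway, 4 of 18 were higher and 8 lower. TSC2, a brake on mTOR, had 7.15, 7.43 and 7.18 in LNCaP-abl and 10.15, 10.23 and 10.20 in LNCaP (-2.94 ± 0.07), with -0.28 at its other probe set. FOXO1, a transcription factor restrained by AKT, was lower, at -2.23 ± 0.09 and AKT1 at -0.82 ± 0.06, while DEPTOR, an mTOR inhibitor, was higher by 0.95 ± 0.05.

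Wnt pathway genes were 8 higher and 10 lower of 23. At 2-fold or more, 3 were higher and 0 lower, against 4.91% and 5% of all genes, and the members named next are higher ones. WNT5A, a ligand of the non-canonical branch, had 12.91, 12.99 and 13.02 in LNCaP-abl, against 7.78, 7.87 and 7.71 in LNCaP (5.18 ± 0.07, limma adjusted p = 6.64e-18). TCF7L2 and LEF1, the DNA-binding partners of beta-catenin, were higher by 1.36 ± 0.04 and 0.90 ± 0.04. In the TGF-beta and BMP pathway, 11 of 20 were lower and 5 higher, against 34.6% and 29.1% of all genes. At 2-fold or more, 4 were lower and 2 higher, against 5% and 4.91% of all genes. The genes of this pathway named next are higher ones, although more members were lower. Beside BMP2, ID1, a classic BMP target, was higher, with 12.37, 12.36 and 12.38 in LNCaP-abl and 11.38, 11.37 and 11.45 in LNCaP (0.97 ± 0.03). TGFBR3, the co-receptor betaglycan, was higher by 1.35 ± 0.04. The morphogen SHH, chosen after its values were seen, had 10.64, 10.65 and 10.54 in LNCaP-abl, against 6.26, 6.31 and 6.22 in LNCaP (4.35 ± 0.05). Of 16 Notch pathway genes 4 were higher and 7 lower. The ligands DLL1 and JAG2 were lower, at -2.09 ± 0.07 and -0.69 ± 0.04, and HEY1, a transcriptional target of the pathway, was higher by 0.80 ± 0.04.

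Metabolic genes differed at particular steps. Of 26 glycolysis and pentose phosphate genes, 12 were lower and 4 higher, against 34.6% and 29.1% of all genes. HK2, the hexokinase that traps glucose, had 6.70, 6.74 and 6.56 in LNCaP-abl, against 8.83, 8.84 and 8.84 in LNCaP (-2.17 ± 0.05, limma adjusted p = 2.26e-15). The phosphofructokinase PFKP and the activating enzyme PFKFB3 were lower, at -1.53 ± 0.04 and -1.18 ± 0.05. PFKFB2, which serves the same step and was chosen after its values were seen, was higher, with 8.61, 8.64 and 8.64 in LNCaP-abl and 7.17, 7.39 and 6.96 in LNCaP (1.45 ± 0.08). Hypoxia targets were 12 lower and 4 higher of 18, against the same shares of all genes, with a median of -0.36. Adrenomedullin, ADM, was lower, at -1.24 ± 0.09 and the oxygen sensor EGLN3 at -0.82 ± 0.05. Cholesterol and fatty acid synthesis genes were 8 higher and 8 lower of 22. INSIG1, a feedback regulator of sterol synthesis, and ELOVL6, a fatty acid elongase, were higher by 1.11 ± 0.06 and 1.14 ± 0.05. SREBF1, the transcription factor of fatty acid synthesis, was lower, at -0.56 ± 0.04. The acyl-CoA synthetase ACSL4 had 7.78, 7.71 and 7.79 in LNCaP-abl and 5.46, 5.43 and 5.09 in LNCaP, where it was dim (2.43 ± 0.10).

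Amino acid transporters were the list after the cell cycle lists with the largest share of gains, 13 of 21, against 29.1% of all genes. Of the same 21, 7 were lower, against 34.6% of all genes. SLC7A5, the light chain of the leucine transporter LAT1, had 11.75, 11.72 and 11.63 in LNCaP-abl, against 6.77, 6.94 and 6.77 in LNCaP, with no overlap (4.87 ± 0.07, limma adjusted p = 6.33e-18). Its heavy chain SLC3A2, chosen after its values were seen, differed by 0.27 ± 0.04. The cystine exchanger SLC7A11 had 11.75, 11.96 and 11.97 in LNCaP-abl and 10.74, 10.70 and 10.47 in LNCaP (1.25 ± 0.07), and the arginine transporter SLC7A2 was higher by 1.75 ± 0.04. The lysosomal arginine sensor SLC38A9 was higher by 1.45 ± 0.04. SLC1A1, a glutamate transporter, had 5.31, 5.47 and 5.37 in LNCaP-abl, all dim, and 10.27, 10.22 and 10.25 in LNCaP (-4.86 ± 0.05). ASS1, which makes arginine from citrulline and was chosen after its values were seen, had 6.47, 6.32 and 6.36 in LNCaP-abl, against 11.41, 11.35 and 11.41 in LNCaP (-5.01 ± 0.05). Transporters of the ABC family were 10 lower and 5 higher of 16. The drug exporter ABCG2 had 7.29, 7.36 and 7.10 in LNCaP-abl, 6.67, 6.51 and 6.51 in LNCaP with DHT and 10.05, 10.07 and 10.06 in LNCaP with vehicle. The cholesterol exporter ABCA1 had 9.42, 9.61 and 9.47 in LNCaP-abl, 4.26, 4.44 and 4.12 in LNCaP with DHT and 7.77, 7.77 and 7.57 in LNCaP with vehicle.

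Stress and death genes differed one by one. Of 28 ER stress and amino acid response genes, 12 were higher and 8 lower, among them the folding factor MANF at 0.54 ± 0.03. Of 20 targets of p53, 5 were higher and 8 lower. GDF15, a secreted stress cytokine, had 9.85, 9.85 and 9.81 in LNCaP-abl, against 13.22, 13.16 and 13.24 in LNCaP (-3.37 ± 0.05, limma adjusted p = 5.25e-18). The death receptor FAS had 11.27, 11.26 and 11.27 in LNCaP-abl and 8.73, 8.80 and 8.80 in LNCaP (2.49 ± 0.04), while BAX, which permeabilises mitochondria, had 6.11, 5.95 and 5.83 in LNCaP-abl and 8.05, 7.99 and 7.98 in LNCaP (-2.04 ± 0.07). PMAIP1, the BH3-only protein NOXA, was lower, at -1.42 ± 0.05. The oncogenic transcription factor MYC was lower, at -0.68 ± 0.04, and of 16 genes of the MYC-linked ribosome biogenesis list 6 were higher and 6 lower. Of 10 cancer-testis antigens, which tumours express out of place, 5 were higher and 3 lower. Beside PAGE1, MAGEA4 had 11.23, 11.21 and 11.29 in LNCaP-abl and 9.61, 9.61 and 9.32 in LNCaP (1.73 ± 0.09), and MAGEC2 had 4.79, 5.17 and 5.01 in LNCaP-abl and 7.61, 7.59 and 7.60 in LNCaP (-2.61 ± 0.11). Among DNA methylation and Polycomb enzymes 9 of 18 were higher and 5 lower, against 29.1% and 34.6% of all genes. With 1 array left out, 7 to 10 were higher and 4 to 5 lower. EED, a core Polycomb subunit, was lower, at -0.50 ± 0.04. The Polycomb genes EZH2 and SUZ12, chosen after their values were seen, were higher by 0.59 and 0.34.

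The cell-line difference was measured a second time in the 6 arrays with TRIM24 siRNA, 3 of LNCaP-abl and 3 of LNCaP, which share no array with the first. There, 4024 genes (29.6%) were higher and 5471 (40.2%) lower in LNCaP-abl, 516 (3.79%) and 792 (5.82%) of them by 2-fold or more. Of the 3962 genes called higher with control siRNA, 2913 were called higher again, and of the 4713 called lower, 4127 were called lower again. Of the 668 genes that were at least 2-fold higher with control siRNA, 640 were called higher again, and of the 680 that were at least 2-fold lower, 678 were called lower again. Of all genes called with control siRNA, 255 were called in the opposite direction. CD200 had 11.96, 11.95 and 11.92 in LNCaP-abl and 4.33, 4.31 and 4.46 in LNCaP with TRIM24 siRNA, NR3C1 had 12.18, 12.12 and 12.18 in LNCaP-abl and 5.84, 5.79 and 6.09 in LNCaP, and TMEFF2 had 4.09, 4.16 and 4.06 in LNCaP-abl and 12.95, 12.95 and 12.93 in LNCaP. The arrays of the lines did not overlap for any of the 3 genes, as for 74.1% of all genes. TRIM24 averaged 7.45 ± 0.10 in LNCaP-abl and 7.71 ± 0.02 in LNCaP in these arrays (SD, n = 3 each), below the 9.53 of LNCaP-abl and 9.70 of LNCaP with control siRNA.

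The cell-line difference of most cell cycle genes was smaller with TRIM24 siRNA. The interaction is the difference with TRIM24 siRNA minus the difference with control siRNA. Its counts below and above 0 are of genes called at an adjusted p under 0.05. The interaction was called below 0 for 38 of 40 G2/M and mitosis genes and above 0 for 0, against 19.9% and 8.58% of all genes. These counts were the same with each array centred on its median and with quantile normalization, whereas over all genes the split moved with the scaling: 1168 above and 2712 below 0 as deposited, 757 and 3404 after centring, and 1645 and 1829 after quantile normalization. At 2-fold or more it was below 0 for 29 of the 40, against 0.772% of all genes, and above 0 for 0, against 0.0294%. With TRIM24 siRNA, 35 of the 40 were higher in LNCaP-abl and 2 lower, with a median of 0.51 in place of 1.79. Of the 39 replication genes, 34 had an interaction called below 0 and 0 above. With TRIM24 siRNA, 19 of the 39 were higher and 14 lower in LNCaP-abl, with a median of 0.15. After centring, these counts were 13 higher and 14 lower. UBE2C had 7.71, 7.64 and 7.59 in LNCaP-abl and 7.28, 7.41 and 7.39 in LNCaP with TRIM24 siRNA, a difference of 0.29 ± 0.04, so its interaction was -1.47 ± 0.05 (limma adjusted p = 2.14e-10). RRM2 had 8.28, 8.11 and 8.34 in LNCaP-abl and 7.19, 7.11 and 7.13 in LNCaP with TRIM24 siRNA (1.10 ± 0.06), and its interaction was -1.73 ± 0.09 (adjusted p = 4.88e-09). The interferon list was not of this kind: 7 of 31 had an interaction called above 0 and 6 below (3 below after quantile normalization), and 18 were not called. With TRIM24 siRNA, 29 of the 31 were lower in LNCaP-abl and 1 higher, with a median of -1.49. ISG15 had 11.76, 11.67 and 11.77 in LNCaP-abl and 13.52, 13.55 and 13.57 in LNCaP with TRIM24 siRNA (-1.81 ± 0.04).

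**Figure D5:**
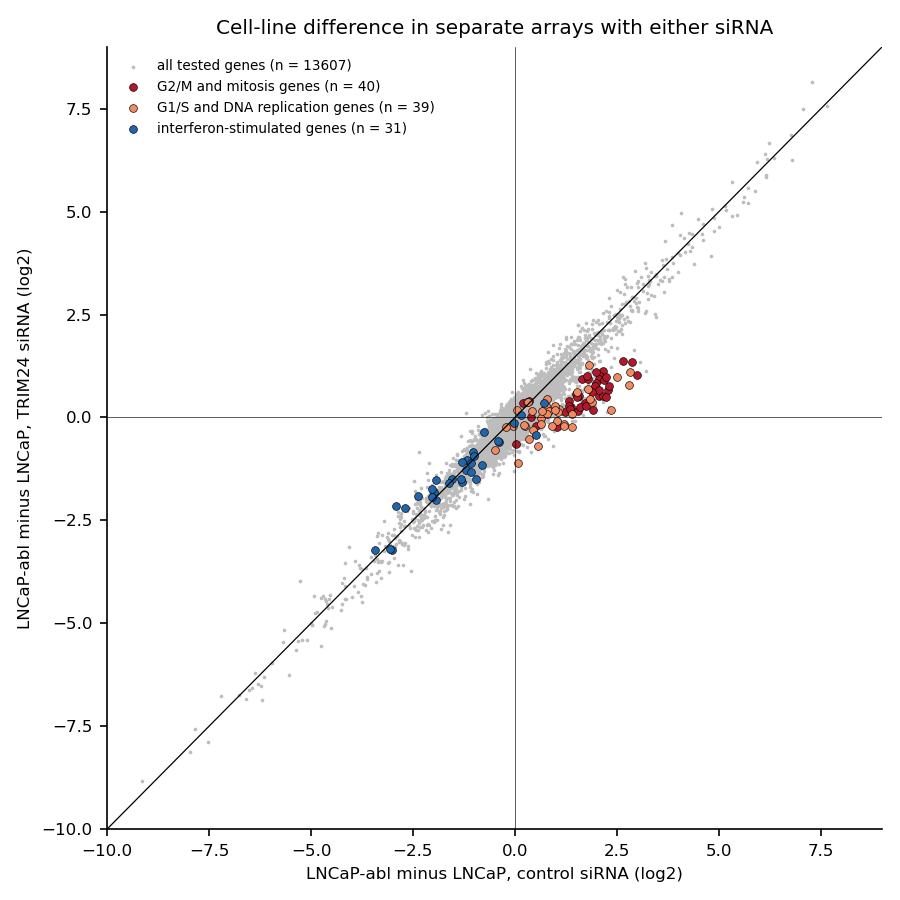
Difference of LNCaP-abl minus LNCaP (log2) in arrays with control siRNA (horizontal axis) and in separate arrays with TRIM24 siRNA (vertical axis) for 13607 genes, with the diagonal as a line. Interferon-stimulated genes (blue, 31) lie near the diagonal, whereas G2/M and mitosis genes (red, 40) and replication genes (orange, 39) lie below it, with a median of 0.51 and 0.15 on the vertical axis against 1.79 and 0.84 on the horizontal axis.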

How the data were processed

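The 18 arrays (6 groups of 3) came from an Affymetrix design with 54675 probe sets. The deposited values are log2 expression values per probe set, computed by the authors by RMA according to the submitters' processing notes; its version is not given in the sources used here. RMA corrects background, normalizes between arrays and summarises probes, so absolute differences in total RNA are not visible. With 3 arrays a group, precision is limited by their number.

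Of the probe sets, 41091 carried 1 gene symbol, 1801 several and 11721 none; the last 2 kinds and 62 control probe sets were left out of the tests. Each of 19775 genes was represented by its probe set with the highest mean over all arrays. The 13607 genes with at least 3 arrays at or above the table median of 5.88 were tested. One limma model (version 3.58.1, R 4.3.3) held the 6 group means over all 18 arrays, with 12 residual degrees of freedom. Contrasts gave the cell-line difference with control siRNA, the same with TRIM24 siRNA, their interaction, the DHT response of LNCaP and LNCaP-abl against DHT-treated LNCaP. P-values were adjusted by Benjamini-Hochberg over all tested genes. Tested on simulated data with 100 genes at each size, the model recovered 58 changes of 0.25, 96 of 0.5 and 100 of 1 on the log2 scale for the control siRNA comparison of 13607 genes, with 10 false calls among 264.

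The gene lists (42, with 1020 distinct genes, of which 926 were measured and 770 tested) and the comparison were chosen with earlier results of these data known. Some list members are not reported here. Named were TRIM24, the 15 largest rises and falls among called genes without overlap, up to 5 called members of a list by smallest adjusted p, the 6 largest interactions each way, and others that are marked as chosen after their values were seen. Symbols and promoters came from RefSeq (GRCh38.p14). Alternatives were another filter, other probe set rules, normalization, variance model, array weights, fewer arrays in the fit, another threshold, each array left out, and a replicate block. Deviations of same-numbered arrays of LNCaP-abl and LNCaP correlated at -0.07, 0.14 and -0.13, so the numbers were not taken as pairs. No scan date or other batch was given.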

Additional observations from a re-analysis of the deposited data

Results flagged for a closer look

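The cell-line difference itself differed between the siRNAs. By the interaction term of the limma fit, 1168 genes were called with a cell-line difference higher with TRIM24 siRNA than with control siRNA. A lower one was called for 2712 genes. This split depended on the scaling, with 1645 higher and 1829 lower after quantile normalization and 757 higher and 3404 lower with each array centred on its median. Of the 301 genes named by rule or by choice, 30 had a called interaction of 2-fold or more, 26 below 0 and 4 above. Among all genes tested these were 105 (0.772%) below and 4 (0.0294%) above. The named genes include the 6 largest interactions each way, chosen for this value, so their count is a description. Replication genes among those below 0 were MCM10 (-2.19), DTL (-2.01), RRM2 (-1.73), UHRF1 (-1.63), FEN1 (-1.36) and TK1 (-1.10). Mitosis genes below 0 were SPC25 (-1.96), TTK (-1.74), BUB1B (-1.54), NUSAP1 (-1.53), UBE2C (-1.47), CDC20 (-1.37), CDK1 (-1.28), PRC1 (-1.25), KIF20A (-1.20), AURKB (-1.13), CCNB1 (-1.12), BUB1 (-1.06), AURKA (-1.05) and CCNB2 (-1.02). The others below 0 were ZNF367 (-2.13), SHCBP1 (-2.09), DEPDC1B (-2.03), the G1 kinase CDK6 (-1.31), the prostaglandin receptor PTGER4 (-1.19) and the RB relative RBL1 (-1.17). Above 0 were NAALADL2 (1.52), PSLNR (1.33), MAF (1.30) and CP, ceruloplasmin (1.01). All these values are on the log2 scale. MCM10 had 4.32, 4.66 and 4.42 in LNCaP-abl and 4.23, 4.36 and 4.29 in LNCaP with TRIM24 siRNA, and 6.63, 7.24 and 7.09 in LNCaP-abl and 4.27, 4.55 and 5.04 in LNCaP with control siRNA.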

How the results depend on the processing

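No called gene among those named changed sign under any alternative, although no alternative took each of a gene's probe sets in turn. Of 5082 values of named genes, 5058 stayed on their side of the threshold, 12 lost the call and 12 gained one. Of the 5082, 301 came from testing every probe set alone, where each gene kept its probe set, so its difference could not change. The sign of CDH1, CDH2, CKAP2, HERC6, LDHA, STEAP4 and SYP, none of them called as deposited, changed under some alternatives. The calls lost were those of TRIM24, KLK2, LIFR, PLK1 and POLD1. Counts of the interaction in this section are of called genes or probe sets. With every probe set tested alone, which tests more features, 7079 were higher and 8263 lower with control siRNA and 7146 and 9652 with TRIM24 siRNA. The interaction was then called above 0 for 1788 and below 0 for 4145. At an adjusted p under 0.01 the interaction was above 0 for 610 and below 0 for 1606, with each array centred on its median it was above 0 for 757 and below 0 for 3404, and with quantile normalization for 1645 and 1829. At 2-fold or more, 668 were higher and 680 lower with control siRNA, 516 and 792 with TRIM24 siRNA, 4 and 105 for the interaction, and 16 replication genes were higher. Leaving out 1 array at a time gave 3705 to 3817 higher and 4464 to 4550 lower with control siRNA, 3715 to 3808 higher and 5178 to 5342 lower with TRIM24 siRNA, and 970 to 1167 above 0 and 2200 to 2732 below 0 for the interaction. Likewise 37 to 39 mitosis genes and 33 to 34 replication genes were higher and 27 to 27 interferon genes lower. The cause of these shifts was not tested. The replicate block, for numbers that did not pair the arrays, gave 3941 higher and 4675 lower with control siRNA, 3989 and 5444 with TRIM24 siRNA, and 1113 and 2588 for the interaction. It also gave 39 mitosis and 34 replication genes higher and 27 interferon genes lower, and changed no named gene's call. Of 756 list medians under the alternatives, 65 moved by more than the spread between arrays. Lists were not computed with every probe set alone. Genes near the dim limit of 5.88 have compressed differences.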

Other observations

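Redox genes were 9 higher and 9 lower of 26 tested. GCLC, the rate-limiting enzyme of glutathione synthesis, and GPX4, which repairs lipid peroxides, were higher by 0.82 ± 0.03 and 0.57 ± 0.03 (SE of the limma fit, n = 3 per line), whereas the quinone reductase NQO1 differed by -0.48 ± 0.03. Of 20 genes of fatty acid uptake, storage and oxidation, 7 were higher and 10 lower. AMACR, a peroxisomal racemase used as a prostate cancer marker, had 7.86, 8.14 and 8.14 in LNCaP-abl and 6.86, 6.45 and 6.65 in LNCaP. Of 15 retinoic acid pathway genes 4 were higher and 5 lower, and ALDH1A3, which makes retinoic acid, had 5.60, 5.89 and 5.65 in LNCaP-abl and 8.39, 8.43 and 8.21 in LNCaP. Ion channels were 7 higher and 11 lower of 25. The calcium-activated channel TRPM4 and the cold receptor TRPM8 differed by -1.30 ± 0.06 and -1.16 ± 0.08. Among 17 apoptosis regulators 3 were higher and 7 lower, with TNFSF10, the death ligand TRAIL, at -1.23 ± 0.12.

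Several genes with large differences were neighbours on their chromosome, by the gene order of RefSeq. Of 13558 pairs of adjacent tested genes, 12.1% were called in the same direction and past 0.3 on the log2 scale, when 17.5% of genes were higher and 22.05% lower at that size. Runs of at least 8 adjacent tested genes in the same direction numbered 8, of which 5 were higher and 3 lower in LNCaP-abl. The run of 14 lower genes that starts with DSC3 held the desmosomal cadherins and went on past TTR (-2.03 ± 0.08) and DTNA (-2.31 ± 0.10), and all 14 were lower with TRIM24 siRNA too. The run of 15 lower genes from PCDHB2 held the beta protocadherins but also TAF7, a general transcription factor subunit (-0.48 ± 0.04). The run of 10 higher genes around CD200 held C3orf52 (5.62 ± 0.05), CCDC80 (4.29 ± 0.11) and ATG3 (1.46 ± 0.05). EGF and ELOVL6 lay together in another run of 10 higher genes, of which 7 were called higher with TRIM24 siRNA too. NT5E (3.13 ± 0.08) and TPBG (5.33 ± 0.11) lay in a further run of 10 higher genes. IFI44 and IFI44L lay in a run of 8 lower genes that also held PTGFR (-2.29 ± 0.10), the receptor of prostaglandin F. These runs were looked for after the values were seen, genes within a run are not independent, and DNA copy number was not measured.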
